A study of Mus musculus with 6 samples.

Results

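Serpins are a family of protease inhibitors that share one fold, and the liver secretes many of them into plasma. The genes described here are the rows of the liver count table whose symbol is that of a mouse serpin gene (Serpin, a clade letter from a to i, a number and at most one further letter) and whose counts summed to at least 10 over the 6 libraries. They were 41 of the 64 rows with such a symbol, among 55367 gene names in all. Just inside that limit lay Serpinb1b with 10 counts and Serpinb9b with 11, and just outside it Serpinb5 with 9. The 23 rows below it, 15 of them with no count, included 20 genes of clade B. Of the 41 genes, 23 belonged to clade A, 8 to clade B, 3 to clade E, 2 to clade F and 1 each to clades C, D, G, H and I.

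An inhibitory serpin offers its target protease a flexible stretch, the reactive centre loop, as bait. Cleavage of the loop traps the protease in a stable complex, so the residue just before the cut bond largely sets which proteases are inhibited. Hepatocytes are the main source of plasma antitrypsin (the Serpina1 genes in mice), antithrombin (Serpinc1), C1 inhibitor (Serping1) and antiplasmin (Serpinf2), while clade B members act inside cells. A few members inhibit nothing and carry hormones or fold collagen.

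The libraries came from whole liver of C57BL/6J mice. Of the 6, 3 were from Lmln-/- animals (Lmln-KO), in which the metalloprotease gene Lmln is disrupted on both alleles, and 3 were from wild-type (WT) animals, without any treatment named in the labels. The animals were 46 weeks old, except that of Lmln-KO replicate 3, which was 39 weeks old. Neither sex nor the make of the allele is given. Values per group are printed in the order of replicates 1, 2 and 3, in CPM, the count scaled to library size with TMM factors.

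Libraries held 17388360 to 22494696 counts, the Lmln-KO ones being deeper. Lmln had 4, 12 and 2 counts in Lmln-KO and 79, 80 and 39 in WT. Xist, transcribed from the silenced X chromosome, was at 1878 to 1947 CPM in Lmln-KO replicate 3 and WT replicates 2 and 3, named the libraries with Xist here. Xist was under 1 CPM in the first 2 Lmln-KO replicates and in WT replicate 1, where 4 Y-linked genes summed to 216 to 235 CPM, and these are named the libraries with Y-linked transcripts. The genotypes are thus unbalanced, WT replicate 1 and Lmln-KO replicate 3 (the younger animal) each standing alone for their genotype in a set, and a fit that adds this split as a covariate, the sex-marker term, is given beside the plain one. In whole liver, fewer cells of a type and less RNA per cell cannot be told apart.

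The Serpina1 genes are taken first, with sequence and levels side by side, since the 5 paralogs differ in the loop. The Serpina3 paralogs, given further below, do so as well. The following lines give the 24 codons of each gene over the reactive centre loop, from the conserved hinge onward, read from GENCODE M21 transcripts (GRCm38) in the longest open reading frame. Capitals mark bases that the 5 genes do not all share.
Serpina1a: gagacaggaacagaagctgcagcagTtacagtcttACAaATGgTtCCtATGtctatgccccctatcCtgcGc
Serpina1b: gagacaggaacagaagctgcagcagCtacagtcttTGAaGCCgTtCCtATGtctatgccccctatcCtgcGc
Serpina1c: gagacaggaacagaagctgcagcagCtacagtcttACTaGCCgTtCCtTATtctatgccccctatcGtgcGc
Serpina1d: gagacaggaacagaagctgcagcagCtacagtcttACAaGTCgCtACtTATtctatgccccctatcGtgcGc
Serpina1e: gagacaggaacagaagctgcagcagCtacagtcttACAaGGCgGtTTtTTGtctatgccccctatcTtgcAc
Of these 72 bases 15 varied, 2 in the first 36 and 13 in the last 36. Over the whole coding sequence the 5 genes were 96.3% to 98.5% identical in pairs. Codon 17 of the stretch, which encodes the residue just before the bond that a target protease cuts, was ATG in Serpina1a and Serpina1b, TAT in Serpina1c and Serpina1d, and TTG in Serpina1e.

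**Figure D1:**
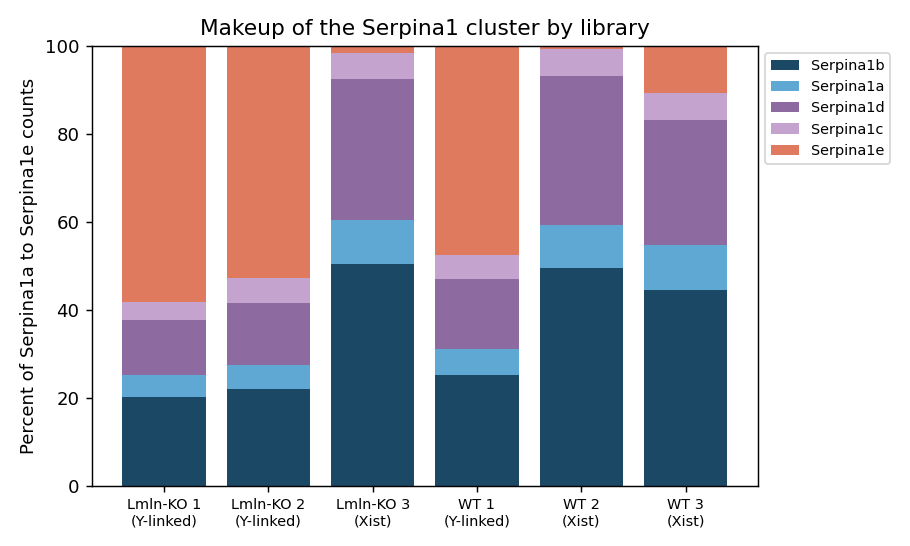
Share of each Serpina1 gene in the summed counts of Serpina1a to Serpina1e (percent, vertical axis) in each library, with the kind of sex-chromosome transcript it held in brackets. Serpina1e took 47.5% to 58.1% in the libraries with Y-linked transcripts and 0.668% to 10.6% in those with Xist.

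Serpina1e accounted for most of the difference between livers in antitrypsin transcripts. Its level was 4633, 4048 and 52.7 CPM in Lmln-KO against 3314, 20.97 and 478 CPM in WT. All 3 libraries with Y-linked transcripts were high and all 3 with Xist were low, in both genotypes, and the genotype groups overlapped. Among the low libraries WT replicate 3 stood highest. In the order given, Serpina1e made up 58.1, 52.7 and 1.59 percent of Serpina1 counts in Lmln-KO and 47.5, 0.668 and 10.6 percent in WT. The gene with the TTG codon was the most counted of the cluster in the libraries with Y-linked transcripts and the least counted in 2 of those with Xist. By genotype the log2 fold change was 1.20 (SE 2.20), turning to -0.92 (SE 1.81) once the sex-marker term was fitted, and edgeR's quasi-likelihood test with Benjamini-Hochberg adjustment passed neither (adjusted p 0.961 and 0.987).

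The other Serpina1 genes were far more even. Serpina1b was at 1608, 1681 and 1672 CPM in Lmln-KO against 1761, 1557 and 2004 CPM in WT, and Serpina1d at 1002, 1091 and 1058 CPM in Lmln-KO against 1109, 1070.1 and 1278 CPM in WT. For both, WT replicate 3 was highest and the groups overlapped. Serpina1a ran from 302 to 465 CPM. Serpina1c, at 325, 435 and 199.8 CPM in Lmln-KO against 378, 191 and 279 CPM in WT, was lower in every library with Xist than in every one with Y-linked transcripts, though by much less than Serpina1e. Summed without Serpina1e, the cluster was at 3338, 3627 and 3263 CPM in Lmln-KO and 3662, 3120.1 and 4025 CPM in WT. With Serpina1e it was at 7971, 7675 and 3315 CPM and 6976, 3141 and 4503 CPM. Log2 fold changes by genotype were -0.10 (SE 0.150) for Serpina1b, -0.13 (SE 0.138) for Serpina1d and 0.18 (SE 0.348) for Serpina1c, the last turning to -0.11 (SE 0.186) with the sex-marker term, and none passed (edgeR adjusted p 0.944, 0.933 and 0.961).

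These levels hold only for reads that could be placed. Of all 36-base words in a gene's GENCODE M21 transcripts, the length of one read, the share also found in another gene's transcripts was 63.2% for Serpina1a, 40.1% for Serpina1b, 83.8% for Serpina1c, 60.8% for Serpina1d and 48.3% for Serpina1e. Serpina1a and Serpina1c were each other's closest gene by this measure. The file header names no option that keeps reads mapping to several places, so the 5 genes may be undercounted by unequal shares, and levels of different Serpina1 genes are uncertain. Exons of Serpina1c also overlap B430119L08Rik on the other strand.

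Upstream of the RefSeq starts of the 5 genes a short window of sequence was much alike. The next lines give 76 bases of each on the minus strand of chromosome 12 (GRCm38.p6, from RefSeq promoters). Capitals mark GTTAAT, a half-site of the motif bound by HNF1 factors, which drive many liver genes. The windows were cut around GTTAAT, so the sharing next to it follows in part from that choice.
Serpina1a: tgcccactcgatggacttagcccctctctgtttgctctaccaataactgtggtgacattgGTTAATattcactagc
Serpina1b: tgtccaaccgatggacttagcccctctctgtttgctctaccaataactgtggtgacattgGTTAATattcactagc
Serpina1c: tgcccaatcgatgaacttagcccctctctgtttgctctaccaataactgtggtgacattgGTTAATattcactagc
Serpina1d: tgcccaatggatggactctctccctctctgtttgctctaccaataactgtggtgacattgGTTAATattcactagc
Serpina1e: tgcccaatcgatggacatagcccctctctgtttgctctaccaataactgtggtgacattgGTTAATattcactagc
The windows lie at chr12:103863625-103863700 (Serpina1a), chr12:103738200-103738275 (Serpina1b), chr12:103904962-103905037 (Serpina1c), chr12:103773634-103773709 (Serpina1d) and chr12:103956960-103957035 (Serpina1e). Serpina1a, Serpina1c and Serpina1e each differed from Serpina1b at 3 of the 76 bases and Serpina1d at 7. The RefSeq start lay 16 to 27 bases after the first base of GTTAAT in Serpina1a to Serpina1d and 78 bases after it in Serpina1e. The annotation used for the counts differs, with Serpina1b reaching to chr12:103830373 and Serpina1e to chr12:103958975. By that annotation the windows of these 2 genes lie within their spans, and the distances hold for the RefSeq starts alone. Searched on both strands of 300-base promoters, GTTAAT was found in 9 of the 37 RefSeq promoters of 32 serpin genes (24.3%). The 9 included those of the 5 near-identical Serpina1 genes, and 7.10% of all 32851 promoters held GTTAAT. These 32 genes are not the 32 tested ones given below. They include genes too low to be tested, and Serpina3k, Serpina6 and Serping1 are not among them. TTCNNNGAA, a STAT motif, was found in 7 of the 37 (18.9%) and in 8.30% of all. The promoters with GTTAAT belonged to 8 genes and those with TTCNNNGAA to 5, the paralogs Serpina3f, Serpina3g and Serpina3i among them. Overlapping promoters of Serpina11 held the same STAT site, as did those of Serpina3f, and overlapping promoters of Serpina7 held the same GTTAAT. Promoters of the family are thus not independent, and the shares were not tested. The motifs CAAAGTCCA (HNF4), TTGCGCAA and TTGCACAA (both C/EBP) were found in 0, 1 and 0 of the 37, against 0.475%, 0.183% and 1.01% of all promoters.

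**Figure D2:**
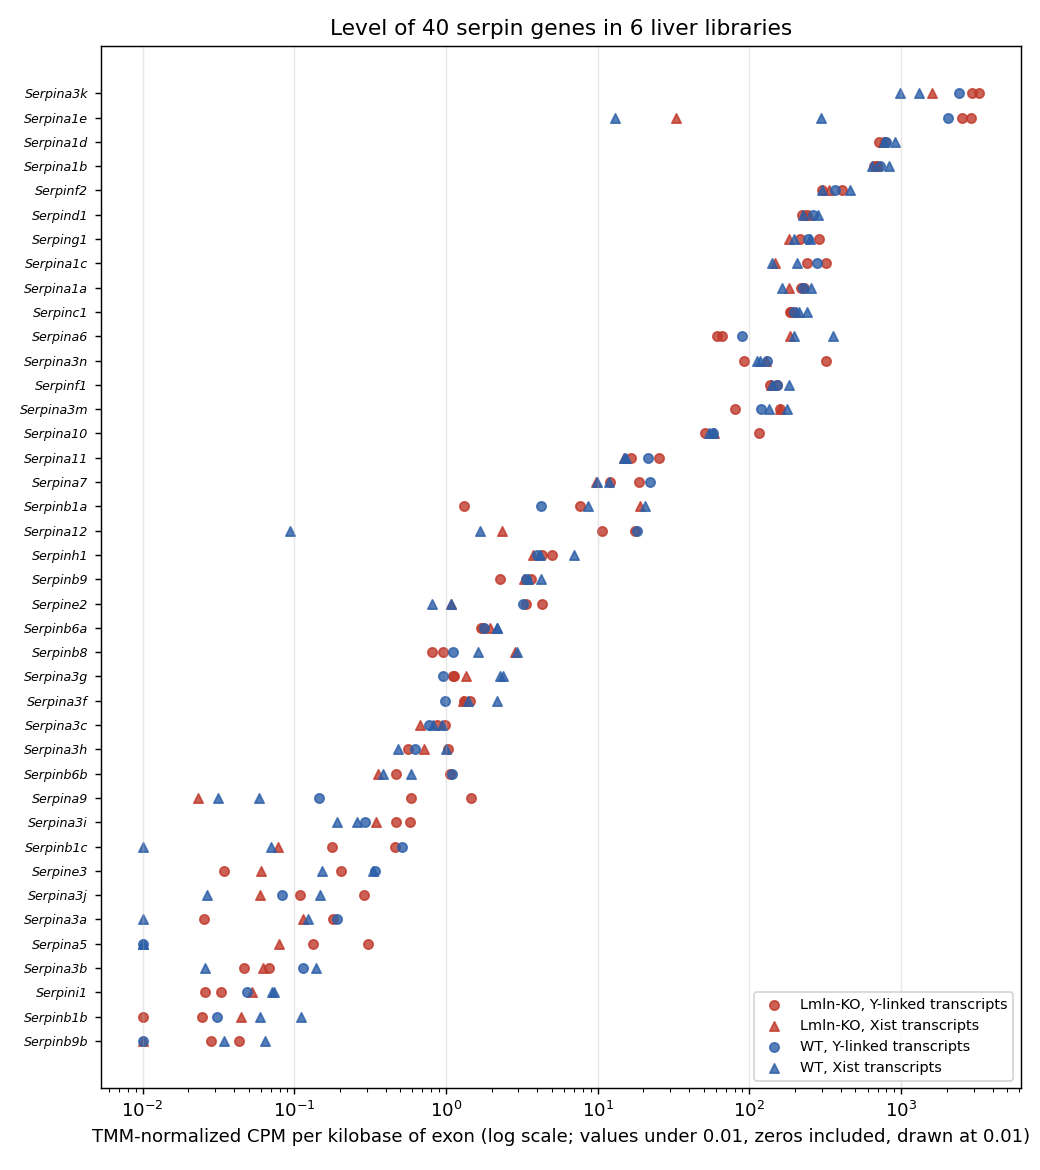
Level of 40 serpin genes in each library, in CPM per kilobase of exon on a log axis, ordered by mean. Red is Lmln-KO, blue is WT, triangles are libraries with Xist, circles those with Y-linked transcripts and values under 0.01 are drawn at 0.01: Serpina1e spans the widest range among the abundant genes, and Serpina12 and Serpinb1a among those of middle level.

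Compared per kilobase of exon, the 41 genes spanned the range from major liver transcripts to traces. A mean of at least 100 CPM per kilobase was reached by 14 genes, 9 of them in clade A, while 12 lay between 1 and 100 and 15 under 1. Serpina3k led with 2081 CPM per kilobase (range 976 to 3243), the 24th highest mean of all gene names in the table. Serpina1e followed at 1293 (12.97 to 2865), then Serpina1d at 790.1 and Serpina1b at 709.5. Serpina3k was above Serpina1e in every library, although their ranges overlapped, and the values of Serpina1d and Serpina1b overlapped as well. Serpin genes together took 1.12% to 1.27% of counts in the libraries with Xist and 1.65% to 1.96% in the others.

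Serpina3k, a gene of the antichymotrypsin cluster known as contrapsin, was higher in Lmln-KO within each set of libraries. It was at 6067, 6670.2 and 3296 CPM in Lmln-KO against 4927, 2711 and 2007 CPM in WT. The libraries with Y-linked transcripts were all above those with Xist, so the genotype groups overlapped when pooled. The log2 fold change of Serpina3k was 0.73 (SE 0.394) by genotype alone and 0.43 (SE 0.177) after the sex-marker term was added. Within the Y-linked set it was 0.37 and within the Xist set 0.50. In edgeR's test the unadjusted p was 0.105 by genotype and 0.0404 with the term, and neither passed after adjustment (adjusted p 0.933 and 0.987). Exons of Serpina3k and Serpina3m overlap in the annotation, and 20.6% of the 36-base words of Serpina3k and 30.0% of those of Serpina3m occur in another gene.

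The Serpina3 paralogs differ more in the loop than the Serpina1 genes do. The same 24 codons follow for the 3 abundant members and for Serpina3f and Serpina3g. Capitals again mark bases that are not shared by all of the genes listed.
Serpina3k: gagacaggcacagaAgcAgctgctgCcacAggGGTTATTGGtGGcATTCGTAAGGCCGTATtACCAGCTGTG
Serpina3m: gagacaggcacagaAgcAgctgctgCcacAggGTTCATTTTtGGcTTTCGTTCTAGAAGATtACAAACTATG
Serpina3n: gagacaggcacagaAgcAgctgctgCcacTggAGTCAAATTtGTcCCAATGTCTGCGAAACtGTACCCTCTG
Serpina3f: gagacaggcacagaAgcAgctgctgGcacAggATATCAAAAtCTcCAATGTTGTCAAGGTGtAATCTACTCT
Serpina3g: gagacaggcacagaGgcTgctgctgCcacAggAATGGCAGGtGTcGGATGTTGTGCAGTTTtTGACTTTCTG
In this set 41 of 72 bases varied, 8 in the first 36 and 33 in the last 36. The coding sequences of Serpina3k, Serpina3m and Serpina3n were 83.0% to 91.2% identical in pairs. The stretch was located by its hinge motif, so the sharing of its first bases follows in part from that choice.

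Serpina3n, an inhibitor of cathepsin G and granzyme B that rises in the acute phase response, stood out in a single library. It was at 662, 191 and 266 CPM in Lmln-KO against 271, 241 and 233 CPM in WT. Lmln-KO replicate 1 was high and the other 5 libraries lay between 191 and 271 CPM. By genotype its log2 fold change was 0.59 (SE 0.470, edgeR adjusted p 0.933). Serpina10, which inhibits activated clotting factor X together with protein Z, had the same shape, at 404, 177 and 204 CPM in Lmln-KO against 202, 188 and 201 CPM in WT. Its log2 fold change of 0.41 (SE 0.305) did not pass (edgeR adjusted p 0.933) and was -0.045 without Lmln-KO replicate 1. The 20 acute phase genes fixed as a list summed to 36345 CPM in Lmln-KO replicate 1 and 16748 to 21655 CPM in the others. Saa1, a serum amyloid gene of that list, was at 788, 19.2 and 7.33 CPM in Lmln-KO against 38.2, 13.7 and 14.2 CPM in WT. The part of the acute phase in the levels of Serpina3n and Serpina10 was not tested.

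Serpina3m was at 272, 139 and 274 CPM in Lmln-KO against 203, 305 and 233 CPM in WT, with Lmln-KO replicate 2 lowest. The remaining genes of the cluster were near or under 5 CPM. Serpina3g, which inhibits cysteine cathepsins in blood cells, was at 2.35, 2.36 and 2.86 CPM in Lmln-KO against 2.02, 5.03 and 4.78 CPM in WT, and WT replicates 2 and 3 were the high ones. For Serpina3g the log2 fold change was -0.64 (SE 0.344, edgeR unadjusted p 0.0981, adjusted p 0.933), but 0.21 within the Y-linked set against -0.76 within the Xist set. T and NK cell markers summed to 1.63 to 2.22 CPM in Lmln-KO and 2.43 to 6.62 CPM in WT, and B and plasma cell markers to 20.8 to 38.6 and 38.8 to 402 CPM, with WT replicates 2 and 3 the highest for both. No marker of either list was at 0 in all libraries, but 0 of the 9 T and NK cell markers were high enough to be tested. Of the 8 B and plasma cell markers 6 were. Their part in the level of Serpina3g was not tested. Serpina3i had few reads, at 27, 22 and 18 counts in Lmln-KO and 11, 8 and 10 in WT, or 1.30, 1.04 and 0.767 CPM in Lmln-KO against 0.653, 0.428 and 0.576 CPM in WT. It was the 1 tested serpin gene that lay higher in every Lmln-KO library than in every WT one, as did 4.61% of all 18703 tested genes. The difference was 0.90 (SE 0.383) on the log2 scale (edgeR unadjusted p 0.0465, adjusted p 0.933), or 0.72 (SE 0.403) once the sex-marker term was fitted (unadjusted p 0.108, adjusted p 0.987). Serpina3i shares 23.6% of its 36-base words with other genes.

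The rest of the Serpina3 cluster was even or scarce. Serpina3f was at 3.03, 3.31 and 2.98 CPM in Lmln-KO against 2.26, 3.21 and 4.95 CPM in WT, highest in WT replicate 3. Serpina3c lay between 1.49 and 2.17 CPM and Serpina3h between 0.691 and 1.49 CPM, and in all 3 genes the genotypes overlapped. Serpina3j, Serpina3a and Serpina3b had 31, 23 and 18 counts in all 6 libraries together. Summed, the cluster followed Serpina3k, which made up 80.7% to 95.1% of its counts.

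Plasma serpins of clotting, fibrinolysis and complement were fairly even across the libraries. Serpinc1, antithrombin, was at 1588, 1611 and 1732 CPM in Lmln-KO against 1669.7, 1811 and 2056 CPM in WT. Serpind1, heparin cofactor II, was at 488, 519 and 539 CPM in Lmln-KO against 575, 491 and 624 CPM in WT. Both were highest in WT replicate 3, and neither parted the genotypes. Serpinc1 was higher in every library with Xist than in every one with Y-linked transcripts, by a small margin. Serpinf2, the inhibitor of plasmin, was at 952, 698 and 776 CPM in Lmln-KO against 856, 698 and 1063 CPM in WT, and Serping1, which inhibits the C1 proteases of complement and plasma kallikrein, at 672, 499 and 423 CPM in Lmln-KO against 563, 459 and 585 CPM in WT. Serpinf1, a secreted member without protease inhibition, ran from 322 to 431 CPM. Log2 fold changes of -0.13 (SE 0.137) for Serpind1, -0.11 (SE 0.196) for Serpinf2 and -0.01 (SE 0.194) for Serping1 did not pass (edgeR adjusted p 0.933, 0.956 and 0.995), and those of Serpinf2 and Serping1 changed sign when single libraries were left out. Of the 36-base words of Serpinc1, 34.9% are shared, nearly all with Zbtb37 on the opposite strand.

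The hormone carriers differed with the sex-chromosome transcripts. Serpina6, corticosteroid-binding globulin, was at 107, 116 and 324 CPM in Lmln-KO against 156, 344 and 626 CPM in WT. Every library with Xist was above every one with Y-linked transcripts, and within each set the Lmln-KO libraries were below the WT ones. For Serpina6 the log2 fold change was -1.04 (SE 0.705) by genotype (edgeR unadjusted p 0.200, adjusted p 0.933) and -0.53 (SE 0.222) after the sex-marker term was added (unadjusted p 0.0458, adjusted p 0.987). It was -0.49 within the Y-linked set and -0.52 within the Xist set. Serpina7, thyroxine-binding globulin, an X-linked gene, was at 45.8, 29.6 and 23.8 CPM in Lmln-KO against 53.9, 29.2 and 24.2 CPM in WT. It ran the other way, with every library with Xist below the others, though WT replicate 2 was barely below Lmln-KO replicate 2. The genotype difference of Serpina7 on the log2 scale, -0.11 (SE 0.385), or -0.34 (SE 0.186) with the term, did not pass (edgeR adjusted p 0.978 and 0.987).

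**Figure D3:**
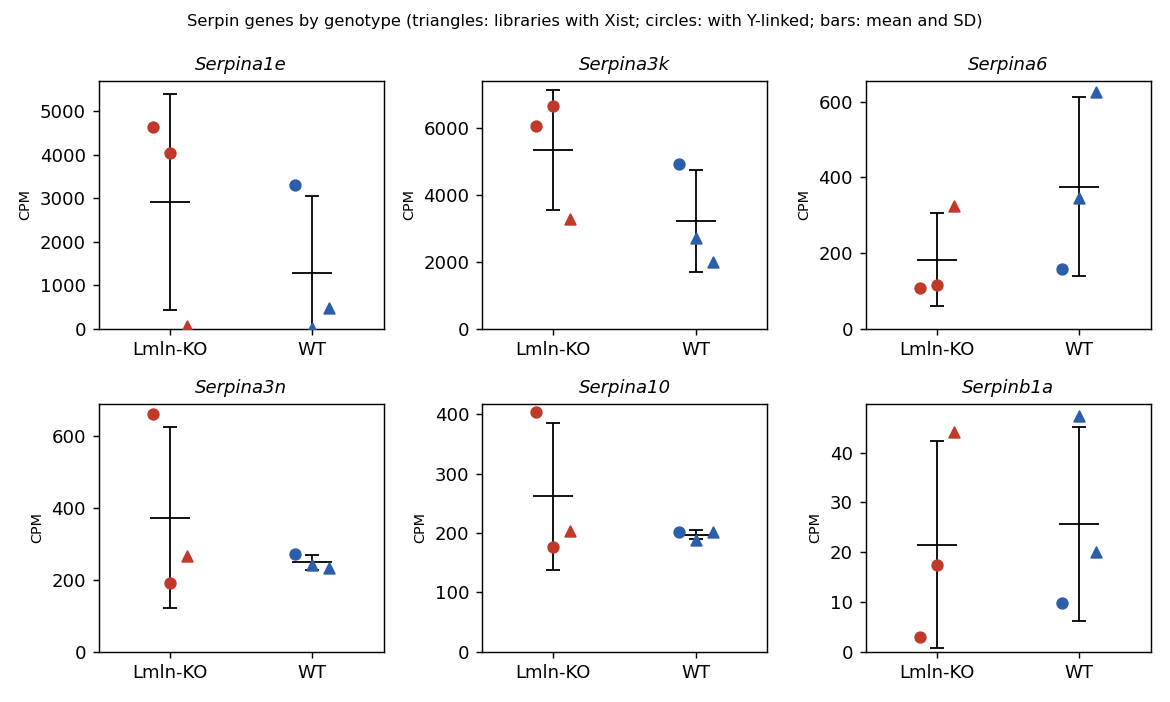
Level in CPM of 6 serpin genes in each library, by genotype, with bars for the mean and SD of 3 libraries, triangles for libraries with Xist and circles for those with Y-linked transcripts. Serpina1e is at 20.97 to 478 CPM in the libraries with Xist and 3314 to 4633 CPM in the others, Serpina3k is lower and Serpina6 higher in the libraries with Xist than in the others, and Serpina3n and Serpina10 are high in Lmln-KO replicate 1 alone.

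Serpine2 and Serpina12 also differed with the sex-chromosome transcripts. Serpine2, protease nexin 1, which inhibits thrombin and urokinase, was at 28.01, 35.7 and 8.996 CPM in Lmln-KO against 26.8, 8.93 and 6.74 CPM in WT, lower in all 3 libraries with Xist. Serpina12, the adipokine vaspin, was at 39.5, 65.1 and 8.65 CPM in Lmln-KO against 67.5, 6.20 and 0.346 CPM in WT, again lower in those 3. WT replicate 3 was the lowest for both. Adipocyte markers summed to 0.107 to 7.42 CPM in WT and 0.256 to 2.93 CPM in Lmln-KO, again lower in all 3 libraries with Xist, nearly all of it from Cfd. The other 4 of the 5 had fewer than 10 counts in all, 2 for Adipoq, and their part in the level of Serpina12 was not tested. Serpinh1, the collagen chaperone of the endoplasmic reticulum, was at 12.3, 10.5 and 9.12 CPM in Lmln-KO against 9.74, 10.1 and 16.99 CPM in WT, with WT replicate 3 high. Stellate cell and fibroblast markers summed to 405 to 569 CPM in Lmln-KO and 490 to 633 CPM in WT, highest in the same library, and their part in the level of Serpinh1 was not tested.

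Serpina9, a gene known from germinal centre B cells, had 45, 114 and 2 counts in Lmln-KO and 9, 4 and 2 in WT, or 2.16, 5.38 and 0.0853 CPM in Lmln-KO against 0.534, 0.214 and 0.115 CPM in WT. Lmln-KO replicates 1 and 2 were high and the groups overlapped. The log2 fold change of 3.12 (SE 1.35), the highest of the 32 tested serpin genes, did not pass (edgeR unadjusted p 0.0629, adjusted p 0.933). It was 1.86 (SE 0.858) after the sex-marker term was added (unadjusted p 0.0650), 2.47 within the Y-linked set and -0.49 within the Xist set. B and plasma cell markers summed to 38.6, 20.8 and 31.04 CPM in Lmln-KO and 38.8, 233 and 402 CPM in WT, and their part in the level of Serpina9 was not tested. Exons of Serpina9 and of its neighbour Serpina11 overlap the predicted gene Gm28577 on the same strand. Serpina11 itself ran from 24.3 to 41.7 CPM, lower in every library with Xist.

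Serpina5, the protein C inhibitor, was too low to be tested, with 6, 14 and 4 counts in Lmln-KO and 0, 0 and 0 in WT. Of its 24 counts 14 came from Lmln-KO replicate 2. It met the limit of 10 counts through the Lmln-KO libraries alone and was singled out after its values were seen, so no fold or test is given.

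The intracellular clade B genes were low in whole liver. Serpinb1a, which inhibits neutrophil elastase and cathepsin G, was the highest of them per kilobase, at 3.03, 17.5 and 44.04 CPM in Lmln-KO against 9.74, 47.4 and 19.98 CPM in WT. Libraries with Xist were all above the others, and Lmln-KO replicate 1 was the lowest. Markers of neutrophils, whose cells contain this inhibitor, summed over 8 genes to 6.05, 2.03 and 3.79 CPM in Lmln-KO and 5.404, 4.44 and 5.41 CPM in WT, and their part in the level of Serpinb1a was not tested. Serpinb9, which protects cells from granzyme B, was at 7.93, 12.7 and 11.5 CPM in Lmln-KO against 11.7, 12.2 and 14.7 CPM in WT. The log2 fold change of Serpinb9 was -0.26 (SE 0.195, edgeR adjusted p 0.933), and Lmln-KO replicate 1 was the lowest. Serpinb8, an inhibitor of furin, was at 4.61, 3.87 and 13.7 CPM in Lmln-KO against 5.34, 7.81 and 13.99 CPM in WT, higher in every library with Xist. Serpinb6a, an inhibitor of cathepsin G, lay between 9.16 and 11.8 CPM, and its exons overlap Nqo2 and Ripk1 on the other strand. Reads over that overlap cannot be assigned to 1 gene without strand in the counting. Serpinb6b lay between 0.810 and 2.49 CPM, with overlapping genotypes.

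**Figure D4:**
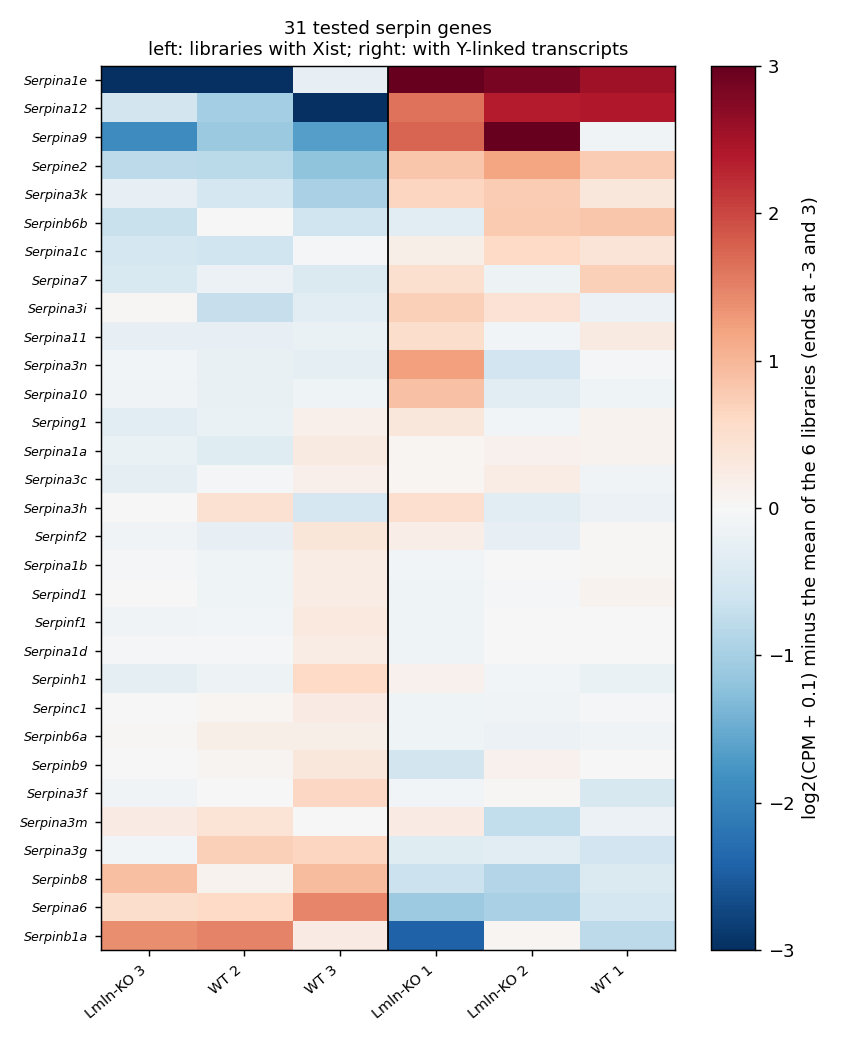
Level of 31 tested serpin genes in each library relative to its own mean, as log2(CPM + 0.1) minus the mean of the 6 libraries (color, ending at -3 and 3), with the 3 libraries with Xist left of the line and the 3 with Y-linked transcripts right of it. Serpina1e and Serpina12 are low and Serpina6 and Serpinb1a are high left of the line.

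Counted over the family, 14 of the 32 tested serpin genes (43.8%) had levels in the 3 libraries with Xist that did not overlap those of the other 3, against 26.3% of all 18703 tested genes. Of the 14, 6 were higher with Xist (Serpinc1, Serpina6, Serpinb1a, Serpinb6a, Serpinb8 and Serpina3g) and 8 were lower (Serpina3k, Serpina1e, Serpina1c, Serpina11, Serpina7, Serpina12, Serpine2 and Serpina9), against 13% and 13.3% of all tested genes. These sets of 3 libraries were defined from the counts and not by the labels, each mixes both genotypes, and the paralogs share reads, so this is a description without a test. Across genotypes, 2 of 32 serpin genes did not overlap, Serpina3i, higher in Lmln-KO, among them, against 10.3% of all tested genes (4.61% higher and 5.73% lower).

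**Figure D5:**
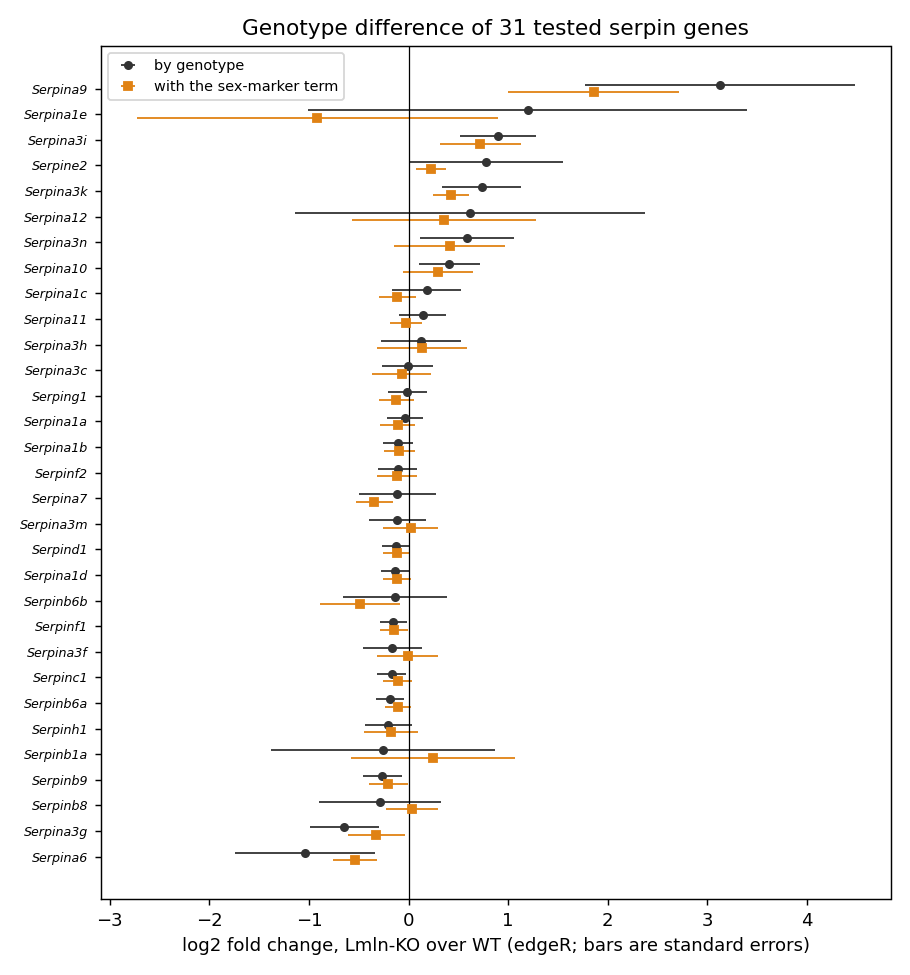
Log2 fold change of Lmln-KO over WT for 31 tested serpin genes, with edgeR standard errors, by genotype alone (circles) and with the sex-marker term (squares). Most genes lie near 0, and Serpina1e, Serpina1c, Serpinb1a, Serpinb8, Serpina11 and Serpina3m change side between the fits.

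No serpin gene passed the threshold in the comparison of genotypes. In edgeR's quasi-likelihood test 0 of the 32 passed an adjusted p of 0.05, as did 0% of the 18703 genes tested, and DESeq2 and limma-voom called 0 of the 32 as well, DESeq2 calling 0.118% of all genes, or 0.16% with the sex-marker term. An unadjusted p under 0.05 was reached by 2 of 32, Serpina3i among them, against 4.66% of all tested genes (1.52% upward in Lmln-KO and 3.14% downward). DESeq2 had 3 such genes, against 4.09% of all (1.35% upward, 2.74% downward), and also 3 with the term, against 2.96% (1.09% upward, 1.87% downward), while limma-voom had 1, against 4.54% of all tested genes. The median log2 fold change of the 32 genes was -0.11, with 11 positive and 21 negative, beside a median of -0.0038 over all genes tested. With the sex-marker term the median was -0.11, 0 of the 32 passed (0.00535% of all genes did), and 3 fell under an unadjusted p of 0.05. Among these were Serpina6, lower in Lmln-KO, and Serpina3k, higher, against 4.34% of all tested genes (1.69% upward, 2.65% downward). The other 9 genes, Serpinb1c, Serpine3, Serpina3j, Serpina3a, Serpina5, Serpina3b, Serpini1, Serpinb1b and Serpinb9b, had 10 to 43 counts each and were not tested.

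In the 6 lists of genes that work with serpins, 0 genes passed after adjustment, with or without the sex-marker term. Of 25 tested target proteases, such as those of clotting, fibrinolysis and complement, 0 passed in edgeR's test (adjusted p 0.933 for the smallest p) and the median log2 fold change was -0.00051. Ctss, a lysosomal cathepsin of myeloid cells, was at 18.6 ± 0.428 CPM in the Lmln-KO group against 24.5 ± 4.23 in the WT group (SD, n = 3) with an unadjusted p of 0.0224, the 1 gene of that list under 0.05, against 4.66% of all tested genes. Of 23 other protease inhibitors 0 passed and 1 had an unadjusted p under 0.05, Timp2, an inhibitor of matrix metalloproteases, at 14.3 ± 0.323 CPM in the Lmln-KO group against 17.6 ± 1.11 in the WT group (SD, n = 3). With the sex-marker term 2 of the 23 had such a p in edgeR's test, against 4.34% of all tested genes. Cofactors and clearance receptors (17 tested, median 0.09), genes of secretion and folding (19, median 0.13) and hormone carriers with their receptors and enzymes (11, median -0.07) had 0 genes with an unadjusted p under 0.05.

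The last list, of regulators of serpin transcription, was drawn up for this report and also holds receptors and a ligand. Whether its genes act on serpin genes in these livers was not tested. Among its 28 tested genes, 0 passed after adjustment in edgeR's test and 4 fell under an unadjusted p of 0.05. These were Foxa2 upward and Klf2, Nr1i2 and Stat5b downward, with a list median of -0.09. Of all tested genes 4.66% had such a p (1.52% upward, 3.14% downward), and 4.61% were higher and 5.73% lower in every Lmln-KO library than in every WT one. With the sex-marker term 3 of the 28 had such a p in edgeR's test, against 4.34% of all tested genes (1.69% upward, 2.65% downward). The list median was then -0.075. The values that follow are from the fit by genotype alone. Foxa2, a liver forkhead factor, was at 26.2, 50.8 and 25.9 CPM in Lmln-KO against 15.3, 21.9 and 14.8 CPM in WT, higher in every Lmln-KO library. Klf2, an endothelial transcription factor, was at 6.44, 7.09 and 7.46 CPM in Lmln-KO against 8.61, 13.1 and 14.1 CPM in WT, lower in every Lmln-KO library, with a log2 fold change of -0.77 (SE 0.201, edgeR unadjusted p 0.00494, adjusted p 0.933). Nr1i2, the xenobiotic receptor PXR, and Stat5b, which carries the growth hormone signal behind many sex differences of liver, were also lower in every Lmln-KO library, with log2 fold changes of -0.30 (SE 0.112) and -0.28 (SE 0.120). The lists of liver genes biased to males and females summed to 3513 to 4924 and 68.3 to 97.4 CPM in the libraries with Y-linked transcripts and to 135 to 207 and 2428 to 2669 CPM in those with Xist, the same split as Serpina1e. Hepatocyte markers summed to 91684 to 102247 CPM in Lmln-KO and 102442 to 118275 CPM in WT. Their part in the levels of the secreted serpins was not tested.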

How the data were processed

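Total RNA of whole liver was depleted of ribosomal RNA and sequenced as pairs of 36-base reads with a directional kit, per the labels. Deposited were whole-number counts per gene name, which the authors made with featureCounts 2.0.1 over Ensembl 102 exons (GRCm38), per the file headers. The deposited exon length served for levels per kilobase. No strand, pair or multi-mapping option stands in the header, so reads where genes on opposite strands overlap may be lost or counted for the wrong gene. Subread 2.0.2 and edgeR 3.36.0 are named in the submitters' processing notes, without their roles.

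All genes were fitted here with edgeR 4.0.16 (R 4.3.3), using TMM, filterByExpr at a minimum count of 10 (18703 genes holding 99.8% of counts), robust glmQLFit by genotype, and Benjamini-Hochberg adjusted p at 0.05 over those genes. Standard errors came from log2 fold change and F. Within-set differences used log2 CPM (prior count 2). Alternatives were DESeq2 1.42.0, limma-voom (limma 3.58.1), other scalings and filters, a replicate block, the sex-marker term and leaving out each library. No pair of libraries was alike within sampling noise (lowest chi-square per degree of freedom 12.2). Whether each replicate is its own animal is not labelled, so p-values measure the spread between libraries. The edgeR fit by genotype alone was tested on simulated counts, which held no difference by sex-chromosome transcripts. The other fits were not tested in this way. Members and lists were chosen with earlier results of these data known. Described in full were the 8 serpin genes highest per kilobase, the 8 with the smallest p, the 6 with the smallest p with the term and the Serpina1 and Serpina3 clusters, plus up to 4 genes per list by p. 1 serpin gene counted in the totals is not reported here.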

Additional observations from a re-analysis of the deposited data

How the results depend on the processing

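Over 24 alternatives no tested serpin gene reached an adjusted p of 0.05. Of the 32, 12 kept their sign in all alternatives in which they were tested (3 higher and 9 lower in Lmln-KO, Serpina6 and Serpina3k among them) and 20 did not. The share of all tested genes that kept their sign was not counted, and the alternatives reuse the same libraries. These counts therefore show no direction of the family. Serpin genes with an unadjusted p under 0.05 were 2 by genotype (4.66% of all tested genes) and 1 each with upper quartile scaling (4.84%), no filter on low counts (4.21%), a minimum count of 50 (4.33%) or limma-voom (4.54%). Leaving out 1 library gave 0 to 6, and the share of all genes moved too: 0 without Lmln-KO replicate 1 (2.83%), 1 without replicate 2 (2.93%), 6 without replicate 3 (7.21%), 3 without WT replicate 1 (8.97%), 0 without replicate 2 (4.47%) and 1 without replicate 3 (2.31%). With the sex-marker term they were 3 (4.34%), and 1 to 4 when 1 library was also left out (2.49% to 6.93%), 1 being without WT replicate 1 (3.72%). The median of the family was -0.16 to 0.047 when 1 library was left out, 0.047 being the value without WT replicate 3, and -0.17 to 0.0027 when the term was also fitted. Leaving out the Serpina1 and Serpina3 clusters left 25 genes. The log2 fold change of Serpina1e was -0.92 with the sex-marker term, also in DESeq2. With the term it was -1.08 without Lmln-KO replicate 1, -0.997 without replicate 2, -1.24 without WT replicate 2 and -2.24 to 0.76 over all 6 such fits, against 0.62 to 3.55 by genotype. Serpina1c was -0.11 with the term, -0.10 with it in DESeq2, -0.10 to 0.45 by genotype without 1 library, and with the term -0.037 without Lmln-KO replicate 1, -0.22 without replicate 2, -0.20 without WT replicate 2 and -0.23 to 0.035 over the 6. Serping1 was 0.0048 without a filter on low counts, -0.21 to 0.14 without 1 library, and 0.062 with the term without Lmln-KO replicate 3. Serpina10 was 0.29 with the term, but -0.045 without Lmln-KO replicate 1 and -0.039 without that library when the term was also fitted. Serpinf2 was -0.25 to 0.058 without 1 library (0.058 without WT replicate 3), -0.12 with the term and 0.035 with the term and without WT replicate 3. Serpina7 was -0.42 to 0.31 without 1 library. With the term, Serpina9 was -0.91 without WT replicate 1 and Serpina3g 0.23 without Lmln-KO replicate 3. Without WT replicate 1 only the libraries with Xist hold both genotypes, and without Lmln-KO replicate 3 only those with Y-linked transcripts do. With the term, such a fit compares the genotypes within that set alone. For each gene named here the cause of the change was not tested.

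Between libraries of the same replicate number, the deviations from the group means correlated at 0.465 for number 1, -0.311 for number 2 and 0.405 for number 3 across tested genes. Lmln-KO replicate 2 correlated best with WT replicate 1. Number 2 joins a library with Y-linked transcripts to one with Xist. Pairing by number and that split cannot be told apart here, so whether the numbers pair the libraries is not known. With the replicate number as a block 4 serpin genes had an unadjusted p under 0.05, as had 6.46% of all tested genes, and 0 passed. The 9 untested genes had 10 to 43 counts each, which limits what they can show.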
